A study of Mus musculus with 24 samples.

Results

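Abcg2, P2ry14, Ddit4, Cpe, Csf2 and Zcchc18 are the 6 genes, of 23420 gene symbols counted, that are described here. They were chosen by their difference between TDG iKO and WT Th2 cells, which passed a test in some ways of fitting those 8 libraries and not in others. Their values in that comparison are therefore given as a description, with no test of them. Tests are given for comparisons in bone marrow-derived macrophages (BMDMs), which the choice did not use, and between WT Th2 cells and WT BMDMs. That last comparison shares the WT Th2 libraries with the choice, and a gene needed counts in Th2 cells to be chosen.

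The study asked what loss of TDG, the glycosylase that removes the oxidized cytosines 5fC and 5caC from DNA, or of the 3 TET dioxygenases that produce them, does to gene expression in dividing T cells and in macrophages. All mice were C57BL/6 and 8 to 16 weeks old. TDG iKO mice carried floxed Tdg alleles, and TET iTKO mice carried floxed Tet1, Tet2 and Tet3 alleles. In these mice the alleles were deleted after tamoxifen (2 mg per injection) by CreERT2, expressed from a transgene at the Ndor1 locus. The study's text does not say whether the WT controls carried floxed alleles. It describes tamoxifen for the control mice too, so the drug is shared by both genotypes. A Rosa26 fluorescent reporter marked the cells in which Cre had acted. The 10 groups were TDG iKO and WT Th2 cells (4 libraries each) and 8 groups of 2 BMDM libraries: TDG iKO and WT in a Tdg cohort, and TET iTKO and WT in a Tet cohort, each at 0 h and after 6 h of Kdo2-lipid A (KLA, 10 ng/ml), an agonist of Toll-like receptor 4. Th2 cells are helper T cells of the type that secretes IL-4. They were grown from sorted naive CD4+ T cells of spleen and lymph nodes, positive for the reporter where mice carried it. The cells had anti-CD3 and anti-CD28 (1 μg/ml) with 1000 U/ml IL-4 and anti-IFN-γ for 2 days and were expanded 3 more days in IL-2 (20 U/ml). BMDMs were grown from bone marrow in L929-conditioned medium and M-CSF.

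These genes act in different places. Abcg2 is an efflux pump of the ATP-binding cassette family that exports drugs, urate and porphyrins. P2ry14 is a G protein-coupled receptor for UDP-glucose and related nucleotide sugars. Ddit4, also called Redd1, restrains the growth kinase mTORC1 through TSC2 and is induced by energy stress, hypoxia and glucocorticoids. Cpe is a carboxypeptidase that trims basic residues from the ends of peptide hormone precursors. Csf2 encodes GM-CSF, a cytokine that activated T cells secrete and that acts on macrophages and granulocytes. Zcchc18 is a member of the paraneoplastic Ma gene family, whose proteins descend from retrotransposon Gag proteins, and its function in T cells is not well known.

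Library totals ran from 4982950 to 26657729 gene counts, with the lowest in WT 0 h BMDMs of the Tdg cohort, replicate 2. Levels are given as CPM, counts scaled to a library total of 1000000 gene counts, leaving out the ribosomal gene Rn45s, whose share of the Th2 counts ran from 0.347% to 8.34%. Replicates 3 and 4 of each Th2 genotype differed by little more than counting noise (mean chi-square per gene 1.34 for TDG iKO and 1.51 for WT, where other replicate pairs within a Th2 genotype had 21.3 to 218) and count as 1 sample in every mean ± SD, so n = 3. The labelled knockout could not be read from Tdg itself, which had 0 to 7 counts in every library. Nor did the counts of whole genes show the TET knockout. At 0 h Tet2 had 52.7 to 55.1 CPM in TET iTKO and 36.7 to 43.2 CPM in WT. Tet3 had 106 to 115 CPM and 95.1 to 100 CPM. The study reports efficient deletion of the floxed Tdg and Tet exons, measured by qRT-PCR in Th2 cells. Ndor1, the locus of the Cre transgene, had 14.7 to 34.6 CPM in TDG iKO and 41.3 to 84.4 CPM in WT Th2 cells. T cell markers summed to 1336 to 1952 CPM in the Th2 libraries and to 7.7 to 27.98 CPM in BMDMs, where most of the sum was Cd4. The Th2 markers summed to at most 0.2 CPM in BMDMs. Of the macrophage markers, Csf1r was at 0 in the Th2 libraries, but Emr1 was not. It had 7.5 to 51.99 CPM in TDG iKO and 15.97 to 55.85 CPM in WT Th2 cells. In 1 library, TDG iKO Th2 replicate 1, Xist had 16 counts and the 4 Y-linked genes summed to 4277, where all other Th2 libraries had at least 18275 Xist counts and at most 1 Y-linked count. Both Tet-cohort WT libraries of replicate 1 had 0 Xist counts, where the other libraries of that cohort had at least 17088. Y-linked counts were 0 throughout the Tet cohort.

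The start sites of these genes differ in their density of CG, the pair of bases that carries most 5-methylcytosine, which TET enzymes oxidize to the bases that TDG removes. RefSeq start-site windows, from 250 bases before to 50 bases after each annotated start, were on hand for Abcg2, P2ry14, Ddit4, Csf2 and Zcchc18. One window per gene, the one with the most CG pairs, is shown 5′ to 3′ with every CG in capitals. Positions are those of the exact match in build mm9, the build of the counts.

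Abcg2, chr6:58590290-58590589, plus strand: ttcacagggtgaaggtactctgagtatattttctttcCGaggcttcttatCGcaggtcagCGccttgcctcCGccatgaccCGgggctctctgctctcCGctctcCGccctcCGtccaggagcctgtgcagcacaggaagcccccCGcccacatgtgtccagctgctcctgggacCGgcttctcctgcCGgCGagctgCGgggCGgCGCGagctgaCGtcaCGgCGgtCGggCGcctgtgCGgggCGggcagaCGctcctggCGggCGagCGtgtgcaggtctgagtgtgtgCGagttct
P2ry14, chr3:58934991-58935290, minus strand: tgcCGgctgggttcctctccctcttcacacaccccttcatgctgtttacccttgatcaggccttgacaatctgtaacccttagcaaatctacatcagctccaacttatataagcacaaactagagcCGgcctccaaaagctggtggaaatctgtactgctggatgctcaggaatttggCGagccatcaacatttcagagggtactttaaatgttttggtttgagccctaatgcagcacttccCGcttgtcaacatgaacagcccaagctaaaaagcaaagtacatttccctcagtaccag
Ddit4, chr10:59414469-59414768, minus strand: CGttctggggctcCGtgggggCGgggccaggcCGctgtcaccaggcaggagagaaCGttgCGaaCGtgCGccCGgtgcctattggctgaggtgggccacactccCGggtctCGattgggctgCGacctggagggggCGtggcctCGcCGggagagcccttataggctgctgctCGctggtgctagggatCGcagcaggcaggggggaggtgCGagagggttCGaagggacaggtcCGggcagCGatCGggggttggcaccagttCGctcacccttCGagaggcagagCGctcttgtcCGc
Csf2, chr11:54063352-54063651, minus strand: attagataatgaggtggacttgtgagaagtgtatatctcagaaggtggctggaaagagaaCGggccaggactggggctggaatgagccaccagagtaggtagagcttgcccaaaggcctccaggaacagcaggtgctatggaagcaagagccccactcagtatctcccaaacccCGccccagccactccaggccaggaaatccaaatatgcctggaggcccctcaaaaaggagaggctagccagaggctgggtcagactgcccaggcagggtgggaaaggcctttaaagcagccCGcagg
Zcchc18, chrX:133527436-133527735, plus strand: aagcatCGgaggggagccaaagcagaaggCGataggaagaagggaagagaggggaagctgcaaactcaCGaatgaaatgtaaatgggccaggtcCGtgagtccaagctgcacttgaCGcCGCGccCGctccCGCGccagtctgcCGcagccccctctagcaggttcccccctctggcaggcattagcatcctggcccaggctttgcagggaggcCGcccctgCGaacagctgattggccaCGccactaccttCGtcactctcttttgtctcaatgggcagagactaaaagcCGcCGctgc

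Ddit4 had 26 CG pairs in its window, and 16.9% of all 32851 windows of this length held as many or more. Csf2 had 3 CG pairs, a number that 76.7% of windows reached. The 3 Abcg2 windows held 3, 10 and 28 CG pairs, and the densest lies within the annotated gene. All 4 windows of P2ry14 were sparse, with 1 to 4 CG pairs, and the 2 overlapping windows of Zcchc18 held 16 and 17. The median window held 7. Both dense and sparse start sites therefore occur among these genes, and no methylation was measured in these libraries.

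**Figure D1:**
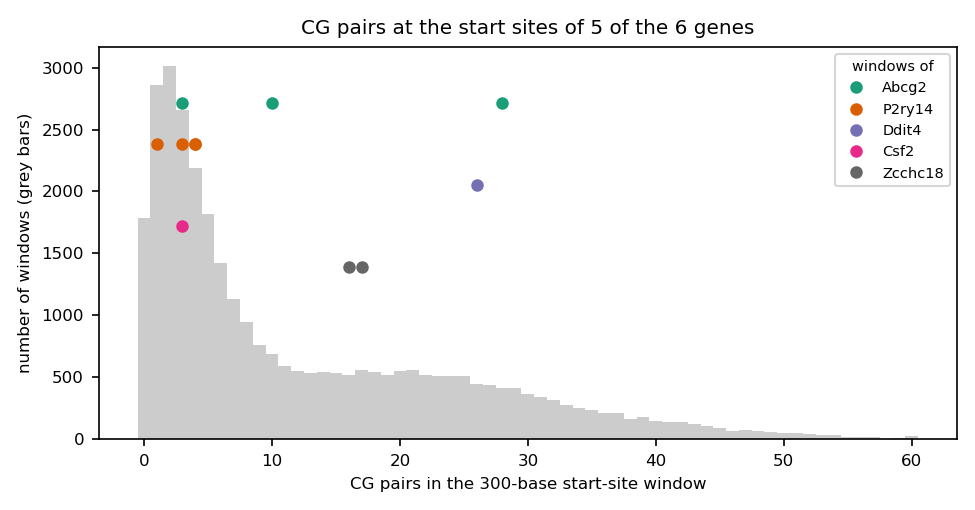
Number of CG pairs (horizontal axis) in each 300-base start-site window; grey bars count all 32851 windows on the vertical axis, with windows of 60 or more in the last bar, and the height of the coloured points, which stand for the windows of 5 genes, has no meaning. Ddit4 and the densest Abcg2 window lie right of the peak, and the windows of P2ry14 and Csf2 lie under the peak, where 2 of the 4 P2ry14 windows share a point.

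In Th2 cells all 6 genes were higher in TDG iKO than in WT in each of the 4 same-numbered pairs. The pattern is what the genes were chosen for, and of 11365 genes with enough counts, 13% were higher in TDG iKO in all 4 pairs and 13.1% were lower in all 4. Every TDG iKO library exceeded every WT library for 0.897% of genes and fell below every WT library for 0.880%. Abcg2, P2ry14, Ddit4, Cpe and Zcchc18 were among the first of these, and Csf2 was not, since its groups overlapped.

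Abcg2 (chr6:58534517-58642863, plus strand) had 70.4, 59.7, 60.5 and 65.5 CPM in TDG iKO replicates 1 to 4. In WT it had 44.2, 44.2, 39.5 and 40.5 CPM. All TDG iKO libraries lay above all WT libraries, and the WT libraries stayed close together. The mean of the pairwise ratios was 1.5-fold (log2 0.59 ± 0.13, SD, n = 3 pairs).

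P2ry14 (chr3:58918548-58934546, minus strand, in an intron of the oppositely oriented Med12l with no shared exon bases) had 33.4, 26.7, 20.5 and 21.3 CPM in TDG iKO. Its WT values were 11.2, 9.63, 12.7 and 14.3 CPM. The size of the difference depended on the pair: the TDG iKO level was highest and the WT level lowest in replicates 1 and 2, and replicates 3 and 4 lay between. The log2 ratio ran from 0.58 in pair 4 to 1.58 in pair 1 and averaged 1.23 ± 0.52 (SD, n = 3), or 2.34-fold. Fitted with replicates 3 and 4 alone the log2 difference was 0.62, and with replicates 1 and 2 alone it was 1.55.

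Ddit4 (chr10:59412423-59414518, minus strand) was by far the most abundant of the 6. It had 341, 322, 337 and 325 CPM in TDG iKO and 267, 268, 286 and 284 CPM in WT. The groups did not overlap, but the difference was the smallest of these genes at 1.21-fold (log2 0.28 ± 0.07, SD, n = 3).

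Cpe (chr8:67071355-67171837, minus strand) had 17.1, 11.7, 14.5 and 16.99 CPM in TDG iKO. Its WT values of 9.22, 8.71, 9.95 and 10.2 CPM were all lower. Pair 2 showed the smallest ratio, and the mean was 1.57-fold (log2 0.65 ± 0.23, SD, n = 3).

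Csf2 (chr11:54060773-54063169, minus strand) rested on few reads. Its counts were 48, 14, 59 and 66 in TDG iKO replicates 1 to 4, or 4.09, 1.91, 4.06 and 5.29 CPM. In WT they were 7, 9, 39 and 43, or 0.87, 1.19, 1.99 and 1.62 CPM. TDG iKO replicate 2 thus lay below WT replicate 3. The mean ratio of 2.69-fold (log2 1.43 ± 0.77, SD, n = 3) was the largest of the 6 genes and the least precise. An annotated transcript on the other strand, Gm12223, shares 96 exon bases with Csf2 and was not counted itself, and the strand setting of the counting was not given.

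Zcchc18 (chrX:133527694-133533011, plus strand) had 13.04, 6.27, 9.23 and 10.3 CPM in TDG iKO. Its WT values were nearly constant at 5.73, 5.28, 5.56 and 5.31 CPM. The mean ratio was 1.69-fold (log2 0.76 ± 0.47, SD, n = 3), and pair 2 again showed the smallest difference. The highest value of this X-linked gene was that of TDG iKO replicate 1, the library with 16 Xist counts, and without it the fitted log2 difference was 0.66 in place of 0.85. Pair 1, which holds this library, also had the largest ratio for P2ry14, Ddit4, Cpe and Csf2, and pair 4 had it for Abcg2. The part that this library's origin had in these values was not tested. A pseudogene on the same strand, Gm15038, lies in the gene and shares 296 exon bases with it.

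**Figure D2:**
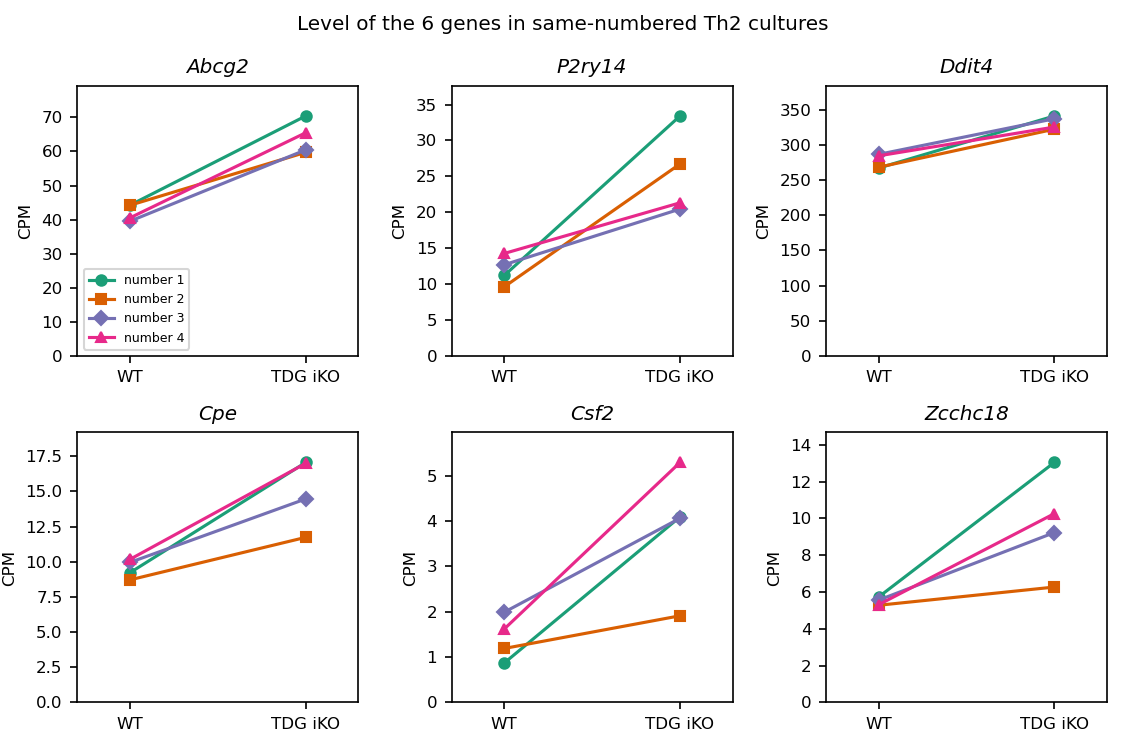
CPM (vertical axes, from 0, a scale per gene) of the 6 genes in WT and TDG iKO Th2 libraries; each point is a library and each line joins libraries of the same replicate number. All lines rise from WT to TDG iKO, least for pair 2 in Abcg2, Cpe, Csf2 and Zcchc18, and numbers 3 and 4 are near-identical libraries.

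How many of the genes passed an adjusted p threshold of 0.05 over all genes in Th2 cells depended on the fit, and nothing is read from these counts, because they are what the genes were chosen on. Without a block, DESeq2 called 2 of 15889 genes (0.0126%), and these were Abcg2 and P2ry14. With the replicate number as a block it called 87 of 9733 (0.894%), Abcg2, P2ry14, Ddit4 and Cpe among them. That fit counts replicates 3 and 4 separately, and with them summed under the same block it called 15 of 10350 genes (0.145%), of which only Abcg2 and P2ry14 were members. Summed and without a block it called 0 of 15826 (0%, with 77 at an unadjusted p below 0.05). A covariate for library number, which sets replicates 1 and 2 apart from 3 and 4, gave calls for all 6 (6.06% of all genes). With replicates 3 and 4 alone all 6 were called too (19.6%). These fits also count replicates 3 and 4 separately. edgeR's quasi-likelihood test called 0 genes (140 at an unadjusted p below 0.05). The fitted log2 difference was positive for all 6 genes in every fit tried.

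Markers of other cells were compared beside these values. The regulatory T cell markers Foxp3 and Ikzf2 summed to 2.9 to 5.46 CPM in TDG iKO and 6.2 to 7.98 CPM in WT, and neither was at 0. The Th2 markers summed to 730 to 821 CPM in TDG iKO and 772 to 984 CPM in WT. The macrophage markers summed to 10.4 to 54.6 CPM in TDG iKO and 18.7 to 58.9 CPM in WT. Cd8b1, a subunit of CD8, had 18.04 to 23.2 CPM in TDG iKO and 15.3 to 17.3 CPM in WT, with no overlap, while Cd8a had 0 to 1.6 and 0 to 2.5 CPM, and the 5 markers of CD8 T and NK cells summed to 19.4 to 23.9 and 16.4 to 20.4 CPM. Over 9997 genes the Th2 difference had a Spearman's rho of -0.293 with exonic length, where genes are not independent replicates. The part that the mixture of cells or the length relation had in the 6 differences was not tested, and in such bulk samples fewer cells of a type and less RNA per cell cannot be told apart.

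Relatives of the 6 genes were set beside them in Th2 cells. Lists of 12 ABC transporters, 13 purinergic receptors and ectonucleotidases, 21 genes of mTORC1 restraint and stress response, 9 carboxypeptidases and prohormone-processing genes, 9 colony-stimulating factors and receptors and 10 paraneoplastic Ma and retro-Gag genes were tested, counting the members. None of them was called in Th2 cells without a block other than Abcg2 and P2ry14, which were also all that was called of the whole table (0.0126%), so nothing about the lists is read from it. The list medians of the log2 difference ran from -0.41 in the retro-Gag genes to 0.05 in the purinergic genes, beside a median of 0.00 over all genes tested.

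The levels of the 6 genes within Th2 cells can be ordered on the scale of CPM per kb of exon. In WT the order was Ddit4 at 162 CPM per kb, Abcg2 at 8.59, P2ry14 at 6.37, Cpe at 4.47, Csf2 at 1.61 and Zcchc18 at 1.12. Libraries of neighbours overlapped for Abcg2 and P2ry14 (7.93 to 8.87 and 5.36 to 7.94 CPM per kb) and for Csf2 and Zcchc18 (1.09 to 2.49 and 1.08 to 1.18), and the other neighbours were separate. In TDG iKO the mean of P2ry14, 15.03 CPM per kb, stood above that of Abcg2, 12.9, though their libraries overlapped.

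Levels in WT Th2 cells and macrophages differed for 5 of the 6 genes, and Cpe did not pass the test. WT Th2 cells were compared with unstimulated WT BMDMs of both cohorts, where DESeq2 called 7608 of 14175 genes (53.7%), so that a call is no mark of these genes. Cell type, culture and, in part, the library number go together in this comparison and cannot be told apart. Its WT Th2 libraries were also part of the choice, which needed counts in Th2 cells, so higher levels there were favoured in advance. On the CPM scale the ratio of Th2 to BMDM was higher than the fitted one by a median of 0.40 on the log2 scale over genes.

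Ddit4 had 267 to 286 CPM in WT Th2 cells and 0 to 1.43 CPM in 0 h WT BMDMs. The fitted log2 fold change was 7.80 ± 0.39 (SE, DESeq2 adjusted p = 4.53e-87). Zcchc18 and Csf2 had no count in any of the 4 WT BMDM libraries at 0 h. With a floor of 3 counts over those libraries, Zcchc18 was at least 94.7-fold higher in Th2 cells and Csf2 at least 27.6-fold higher, and both were called (DESeq2 adjusted p = 1.45e-11 and 0.000155). Abcg2 was higher in Th2 cells too, at 42.8 ± 2.42 CPM (SD, n = 3) against 5.25 ± 3.68 CPM (SD, n = 4), and the fitted log2 difference was 2.63 ± 0.50 (SE) with a DESeq2 adjusted p of 5.07e-07.

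P2ry14 was lower in Th2 cells, at 11.4 ± 1.94 CPM (SD, n = 3) against 24.6 ± 3.85 CPM (SD, n = 4), and the fitted log2 difference was -1.49 ± 0.26 (SE) with a DESeq2 adjusted p of 3.25e-08. Its TDG iKO Th2 libraries, at 20.5 to 33.4 CPM, overlapped the range of the unstimulated BMDMs of all genotypes, 21.4 to 41.7 CPM. Cpe did not pass the threshold (log2 fold change -0.97 ± 0.52, SE, DESeq2 adjusted p = 0.107). Its 0 h WT libraries had 17.6 and 24.4 CPM in the Tdg cohort, and in the Tet cohort they had 6.26 and 6.95 CPM. The WT Th2 values of 8.71 to 10.2 CPM fell between the cohorts. Without either of the Tet-cohort WT libraries Cpe was called, with log2 fold changes of -1.24 (replicate 1 left out) and -1.22 (replicate 2 left out). With Th2 replicates 1 and 2 against the Tdg cohort only, Cpe had a log2 fold change of -1.68 and was called (DESeq2 adjusted p = 0.00277). The call of Csf2 was lost in that fit (DESeq2 adjusted p = 0.148), and edgeR and the low-count filter left Csf2 untested.

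**Figure D3:**
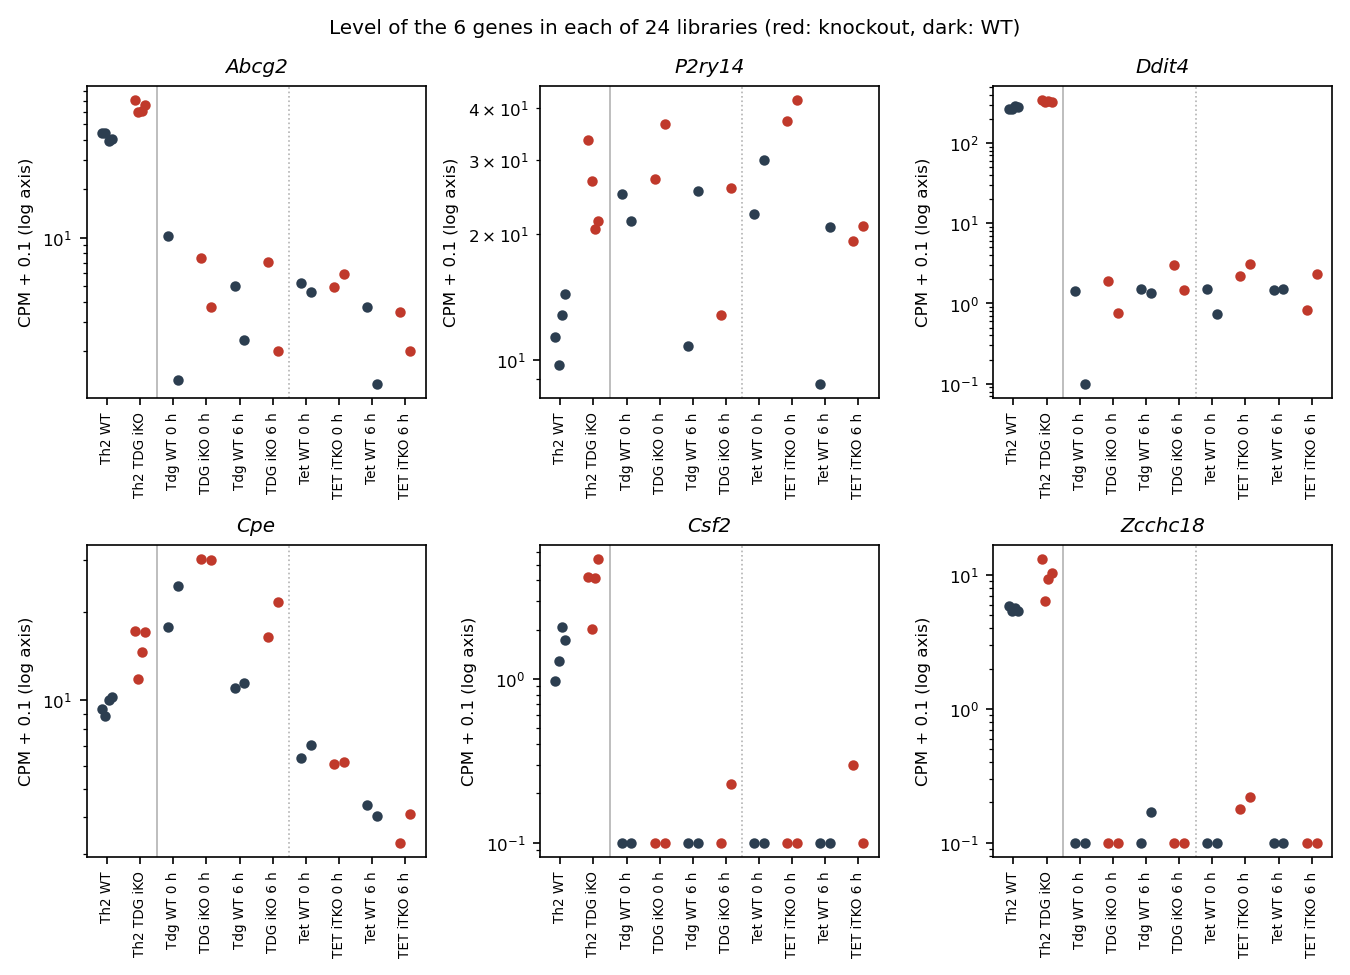
CPM + 0.1 on log axes (a scale per gene) of the 6 genes in all 24 libraries, a point each, by group on the horizontal axis, with knockouts in red and WT in dark. Ddit4, Csf2 and Zcchc18 are high in Th2 cells and at or near 0 in BMDMs, Abcg2 is lower in BMDMs, and Cpe differs between the Tdg cohort (left of the dotted line) and the Tet cohort (right of it).

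In BMDMs no difference between TDG iKO and WT passed the threshold for any of the 6 genes. DESeq2 called none of 15026 genes at 0 h (0%) or at 6 h (0%), and edgeR called none either, so the members' lack of calls is that of all genes. At an unadjusted p below 0.05, DESeq2 counted 265 genes at 0 h and 34 at 6 h. The WT libraries at 0 h were unlike. Replicate 2 had the lowest total of all (4982950 gene counts) and 46.6% of its reads assigned to no gene, against 32.8% in replicate 1. How many genes were called without 1 of them depended on which was left out. The lone WT library is then assumed to vary as the other groups do. None of the 6 was called in either case. Csf2 and Zcchc18 could not be compared, since Csf2 had 0 counts in 14 of 16 BMDM libraries and at most 3 in the others, and Zcchc18 had 0 in 13 and at most 2.

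For Cpe every TDG iKO macrophage library lay above every WT library of the same time, but neither difference passed the test. Of 10819 genes with enough counts in this cohort, 14.3% were separated in this direction at 0 h and 7.30% at 6 h. At 0 h Cpe had 30.1 and 29.9 CPM in TDG iKO and 17.6 and 24.4 CPM in WT. At 6 h it had 16.3 and 21.6 CPM in TDG iKO and 10.9 and 11.4 CPM in WT. The log2 fold changes of 0.41 ± 0.39 at 0 h and 0.78 ± 0.40 at 6 h (SE) did not pass (DESeq2 adjusted p = 1.00 at both times, unadjusted p = 0.291 and 0.0497). With each fit and each library left out they stayed positive, between 0.10 and 0.79 at 0 h and between 0.42 and 1.06 at 6 h.

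Other measures of the Tdg cohort are set beside these values. Markers of neutrophils and myeloid progenitors summed to 29.5 and 484 CPM in TDG iKO at 0 h and to 37.3 and 156 CPM in WT. The 0 h effect of all genes followed exonic length (Spearman's rho 0.492 over 9630 genes, which are not independent replicates), and the length of Cpe, 2087 bases, is longer than that of 55.9% of genes. The rho was -0.147 at 6 h. Their part in the Cpe values was not tested.

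P2ry14 had 26.99 and 36.6 CPM in TDG iKO and 24.9 and 21.4 CPM in WT at 0 h, a separation that 14.3% of genes showed. At 6 h it had 12.7 and 25.7 CPM in TDG iKO and 10.7 and 25.2 CPM in WT, where same-numbered libraries resembled each other more than libraries of 1 genotype. The log2 fold changes were 0.38 ± 0.55 at 0 h and 0.10 ± 0.55 at 6 h (SE, DESeq2 adjusted p = 1.00 for both). The 6 h value changed sign when WT replicate 1 or TDG iKO replicate 2 was left out. Abcg2 spread widely, from 1.21 to 10.1 CPM in WT at 0 h, and Ddit4 had 0 to 2.91 CPM over the 8 libraries, with TDG iKO and WT values overlapping in both genes at both times. Ddit4 rested on at most 25 counts in any of them.

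In TET iTKO BMDMs many genes passed the test, but none of these 6. DESeq2 called 916 of 12114 genes at 0 h (7.56%) and 762 of 11823 at 6 h (6.45%). P2ry14 had 37.2 and 41.7 CPM in TET iTKO at 0 h and 22.2 and 29.9 CPM in WT, a separation that 35.2% of 11063 genes showed (log2 fold change 0.54 ± 0.48, SE, DESeq2 adjusted p = 0.696). A fit of those 4 libraries alone called it (DESeq2 adjusted p = 0.0473), beside 1108 of 11559 genes. At 6 h it had 19.1 and 20.8 CPM in TET iTKO and 8.66 and 20.7 CPM in WT (log2 fold change 0.36 ± 0.48, SE, DESeq2 adjusted p = 0.832). That value turned on the 2 WT libraries: without replicate 1 it was -0.16, and without replicate 2 it was 1.17. In such a fit the group is 1 library, which is assumed to vary as the other groups do. WT replicate 1, with 8.66 CPM at 6 h, had 0 Xist counts, and its part in the value was not tested.

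Ddit4 had 2.07 and 3.00 CPM in TET iTKO at 0 h and 1.43 and 0.65 CPM in WT, on 14 to 52 counts. This difference, 1.25 ± 0.67 on the log2 scale (SE), did not pass (DESeq2 adjusted p = 0.338). Cpe had 5.97 and 6.05 CPM in TET iTKO at 0 h and 6.26 and 6.95 CPM in WT, and 3.18 and 4.01 CPM against 4.30 and 3.95 CPM at 6 h. Its log2 fold changes were -0.19 ± 0.33 and -0.26 ± 0.35 (SE, DESeq2 adjusted p = 0.904 and 0.830), so its direction was opposite to that in TDG iKO. The difference of the 2 effects was tested itself in all 16 BMDM libraries. For Cpe it was -0.61 ± 0.43 at 0 h and -1.03 ± 0.45 at 6 h (SE, TET effect minus TDG effect), with DESeq2 adjusted p = 0.837 and 1.00. None of the 6 genes was called for it, beside 0.340% of all genes at 0 h and 0.0888% at 6 h.

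Other genes of the stress-response list did rise in TET iTKO BMDMs. Of 20 tested genes in the list that holds Ddit4, 6 rose and none fell at 0 h, and 5 rose and none fell at 6 h. Over all genes, 535 of 12114 rose at 0 h and 374 of 11823 at 6 h. The list medians were 0.45 and 0.29 beside 0.01 and 0.00 over all genes. The list was written with earlier results of these data known, so its counts are a description. Trib3, a pseudokinase induced by the transcription factor ATF4, rose by a log2 fold change of 1.26 ± 0.27 at 0 h and 1.84 ± 0.29 at 6 h (SE, DESeq2 adjusted p = 0.000145 and 7e-08). Asns, the asparagine synthetase that ATF4 also induces, rose by 1.25 ± 0.19 and 1.30 ± 0.19 (SE, DESeq2 adjusted p = 3.56e-09 and 1e-09). Fkbp5, a glucocorticoid-induced chaperone partner, rose by 1.18 ± 0.29 and 0.90 ± 0.29 (SE, DESeq2 adjusted p = 0.00138 and 0.0368). In the purinergic list Adora2a rose and P2ry12 and Entpd1 fell at 0 h, and P2rx7 fell at 6 h. Among colony-stimulating factor genes, Csf2ra, a subunit of the GM-CSF receptor, fell at both times (-0.55 ± 0.13 and -0.66 ± 0.13, SE, DESeq2 adjusted p = 0.000522 and 1.59e-05). No gene of the 6 lists was called between TDG iKO and WT at either time. Markers of other cells moved in the Tet cohort too. The fibroblast markers summed to 31.5 to 37.5 CPM in TET iTKO and 10.4 to 13.1 CPM in WT at 0 h, and to 56.3 to 61.7 and 17.9 to 20.4 CPM at 6 h. The neutrophil and progenitor markers summed to 66.3 to 136 CPM in TET iTKO and 28.3 to 52.5 CPM in WT at 0 h, the B cell markers to 3.75 to 17.2 and 1.31 to 1.69 CPM, and the macrophage markers to 21629 to 21773 and 25156 to 26207 CPM. Their part in the changes of the listed genes was not tested.

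After KLA genes passed the test in all 4 genotype groups. None of the 6 genes did in the fit of all 8 libraries of a cohort, with DESeq2's own size factors and no block. DESeq2 called 8.73% of genes in Tdg-cohort WT, 6.95% in TDG iKO, 23.6% in Tet-cohort WT and 24.7% in TET iTKO. Cpe was lower at 6 h than at 0 h in 8 of 8 same-numbered pairs, as 25.3% of 10969 genes were. Its log2 fold changes were -0.82 ± 0.40 in Tdg-cohort WT, -0.45 ± 0.39 in TDG iKO, -0.56 ± 0.34 in Tet-cohort WT and -0.63 ± 0.34 in TET iTKO (SE), with DESeq2 adjusted p from 0.186 to 0.822.

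P2ry14 was lower at 6 h in 7 of 8 pairs, with replicate 2 of Tdg-cohort WT as the exception (21.4 CPM at 0 h and 25.2 CPM at 6 h), and 41.9% of genes were lower in at least 7. The log2 fold changes were -0.23 ± 0.55 in Tdg-cohort WT, -0.51 ± 0.55 in TDG iKO, -0.70 ± 0.48 in Tet-cohort WT and -0.88 ± 0.48 in TET iTKO (SE, DESeq2 adjusted p from 0.186 to 0.920). In the Tet cohort the titles give only a replicate number, but the names of the deposited files carry 1 further number that the 0 h and 6 h libraries of a replicate share, and both WT libraries of replicate 1 had 0 Xist counts. Whether the 2 come from 1 animal is not stated. With these pairs as a replicate block nested in genotype, chosen after the data were seen, P2ry14 was called in Tet-cohort WT (log2 -0.80, DESeq2 adjusted p = 0.00178, beside 26.8% of all genes) and in TET iTKO (log2 -0.88, DESeq2 adjusted p = 0.000343, beside 26.2%). Without a block P2ry14 was called in TET iTKO with TMM factors (DESeq2 adjusted p = 0.0109), where 2783 of 11531 genes were called. It was also called there with the 4 libraries alone (DESeq2 adjusted p = 5e-05), where 2423 of 11676 genes were. When the 6 h WT library of replicate 2 was left out, its log2 fold change in WT was -1.51, with 1 library in that group.

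Abcg2 was lower at 6 h in 7 of 8 pairs as well. In Tet-cohort WT it went from 5.15 and 4.52 CPM to 3.64 and 1.15 CPM, and in TET iTKO from 4.83 and 5.88 CPM to 3.38 and 1.90 CPM, with no overlap in either genotype. Of 11063 genes, 44.9% were lower in both 6 h libraries than in both 0 h libraries in WT, and 42.5% in TET iTKO. The log2 fold changes were -0.90 ± 0.48 and -0.93 ± 0.48 (SE, DESeq2 adjusted p = 0.185 and 0.162). Without the WT library of replicate 1 at 6 h the first was -1.91, again with 1 library assumed to vary as the other groups do. Ddit4 had no common direction, being lower at 6 h in 3 of 8 pairs on 0 to 52 counts. None of the 6 passed the test of the interaction, which asks whether the response to KLA differs between genotypes and which called 0% of all genes in the Tdg cohort (37 at an unadjusted p below 0.05, and 0 by edgeR) and 0.429% in the Tet cohort.

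**Figure D4:**
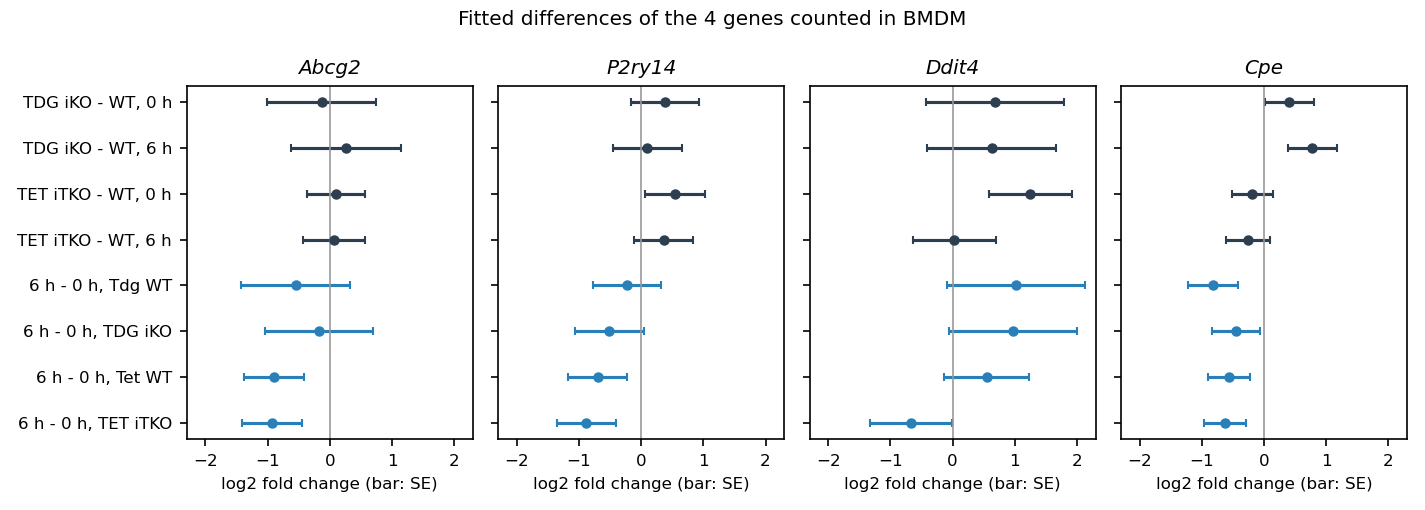
Fitted log2 fold change (points, horizontal axes) with its SE (bars) for the 4 genes with counts in at least 15 of the 16 BMDM libraries; rows in dark are knockout against WT and rows in blue are 6 h of KLA against 0 h. Cpe lies right of 0 for both TDG rows and left of 0 for both TET rows and all KLA rows, and P2ry14 and Abcg2 lie left of 0 in all KLA rows.

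Relatives of these genes passed the test after KLA where the members did not. Abcc5 and Abcc4, exporters of cyclic nucleotides, led the ABC transporters, of which 4 of 12 rose in Tdg-cohort WT, 1 in TDG iKO, and 5 rose while 2 fell in each genotype of the Tet cohort. Abcc5 rose by 1.98 ± 0.41 and 1.47 ± 0.41 in Tdg-cohort WT and TDG iKO and by 1.63 ± 0.14 and 2.00 ± 0.15 in Tet-cohort WT and TET iTKO (log2, SE). The adenosine receptor gene Adora2a rose most among purinergic genes, by 3.99 to 4.84 on the log2 scale in the 4 groups, while P2ry12, the ADP receptor of microglia and platelets, fell in all 4. Csf3, which encodes G-CSF, rose by 5.59 to 8.66 on the log2 scale, while Csf2 had at most 3 counts in any stimulated library. Cpd, a membrane carboxypeptidase related to Cpe, rose in Tdg-cohort WT (1.17 ± 0.37), Tet-cohort WT (1.15 ± 0.10) and TET iTKO (1.12 ± 0.10, log2, SE), where Cpe was lower. Tsc22d3, a glucocorticoid-induced leucine zipper gene listed with Ddit4, fell in the 4 groups, with log2 fold changes from -2.52 to -2.04. The retro-Gag gene Peg10 rose in both genotypes of the Tet cohort, by 5.07 ± 1.65 and 3.86 ± 1.09 (log2, SE). These rises are at a low level. Its whole list summed to 0.61 to 0.65 CPM at 0 h and 0.85 to 1.61 CPM at 6 h in WT. In TET iTKO it summed to 0.54 to 0.86 CPM and 1.86 to 3.5 CPM.

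The genes whose level followed each member most closely were sought by Pearson's r of log2(CPM + 1), as a description. Over 24 libraries Ddit4 was most like Lck, Il2rb and Sept1 (r from 0.995 to 0.996), Zcchc18 like 6430571L13Rik, Cd8b1 and Espn (0.991 to 0.992) and Abcg2 like Xrcc5, Cdc16 and Tbl2 (0.980 to 0.981), in libraries that fall into 2 separate cell types. P2ry14 and Cpe followed no gene as closely, with Ncoa1 (0.689) and Ckb (0.835) the most alike. Over the 16 BMDM libraries P2ry14 was most like Tle4 (0.897), Ncoa1 and Tspan13, Cpe like Dpep2 (0.932), Napsa and Lilra6, Abcg2 like Oma1 (0.938), Glud1 and Rnf41, and Ddit4 like Stx12 (0.860), Cited2 and Ipmk. Csf2 was too low for this measure, and so was Zcchc18 in BMDMs.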

How the data were processed

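RNA was measured by polyA RNA-seq in 24 libraries (8 Th2, 16 BMDM). Per the labels, the authors aligned reads to mm9 with HISAT2 and counted reads per gene with HTSeq, and they deposited raw counts. The tool versions, annotation and strand setting were not given in the sources used here. The tallies of reads assigned to no gene (32.8% to 51.6% of each library) were left out. Comparisons were fitted over all genes with DESeq2 1.42.0 (Wald test, Benjamini-Hochberg adjusted p threshold of 0.05). edgeR 4.0.16, TMM factors, a low-count filter, replicate blocks and leaving out each library were alternatives. BMDM fits used the 8 libraries of a cohort, and all 16 for the difference of TET and TDG effects. The fitting was tested on simulated data. Th2 libraries were paired by replicate number (r of same-numbered deviations 0.706 to 0.907 in 4 pairs). In both genotypes replicates 3 and 4 lie apart from the other replicates, which can raise this r by itself. Libraries of different numbers were not compared in this way. The r therefore cannot decide whether a shared number marks paired samples. In the mean and SD, replicates 3 and 4 were averaged. The cell type comparison used their summed counts. The titles do not say that replicates are separate mice, so p-values measure the spread between these libraries, which may be technical. The members and gene lists were chosen with earlier results of these data known. Named relatives were called genes with the largest changes of their list, up to 3 per list and comparison. Exonic lengths came from GENCODE M1 on mm9. Start-site windows were RefSeq's (GRCm38.p6), matched exactly and uniquely to mm9.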

Additional observations from a re-analysis of the deposited data

How the results depend on the processing

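The Th2 differences of the 6 genes had 1 direction in all 132 alternative values, a direction they were chosen for. In Th2 cells the number of genes called was 2, and it was 0 with edgeR and 87 with the replicate block. It was 627 with the library-number covariate, 46 with replicates 1 and 2 and 1957 with replicates 3 and 4. With replicates 3 and 4 summed it was 0, or 15 with the replicate block added. It ran from 0 to 5 with 1 library or pair left out. Leaving out 1 library moved the counts of genes called to 0 to 1184 for TDG at 0 h, 353 to 2211 and 372 to 696 for KLA in Tdg-cohort WT and TDG iKO, 0 to 241 for the TDG interaction, 280 to 743 and 262 to 699 for TET at 0 and 6 h, 1872 to 2453 for KLA in Tet-cohort WT, 15 to 154 for the TET interaction, and 14 to 2409 and 2 to 17 for the difference of the effects at 0 and 6 h. edgeR called 413 and 346 genes for KLA in Tdg-cohort WT and TDG iKO, 1 for the TET interaction, and 0 and 1 for the differences at 0 and 6 h. The replicate block gave 4 for TDG at 0 h, 1805 and 1373 for KLA in Tdg-cohort WT and TDG iKO, 90 for the TET interaction, and 182 and 101 for the differences. Nested in genotype, the replicate block gave 1813 and 1315 for KLA and 224 for the TET interaction. Of the 6 genes, 1 (P2ry14) was called for KLA in Tet-cohort WT and in TET iTKO with either replicate block, in TET iTKO also with TMM factors or only the groups compared, and for TET at 0 h with only the groups compared. Leaving out 1 library gave 0 to 1 of the 6 for TET at 6 h and for KLA in Tet-cohort WT. P2ry14 changed sign for TDG at 6 h (-0.43 without WT replicate 1 and -0.66 without TDG iKO replicate 2, in a range up to 0.97), for TET at 6 h (-0.16 without WT replicate 1, up to 1.17) and for KLA in Tdg-cohort WT (0.31 without WT replicate 1 at 6 h, down to -1.09). Of the fold changes the text gives for these genes, 191 of 205 alternative values in BMDMs and 66 of 70 between cell types kept their direction and side of the threshold. The causes were not tested. The pairing changed no other call of the 6 genes in BMDMs. Same-numbered deviations in BMDMs correlated at 0.032 and 0.04 between Tet genotypes. Between 0 h and 6 h, the pairs of the nested block, they correlated at 0.466 in Tet-cohort WT and 0.481 in TET iTKO. In the Tdg cohort the values were 0.326 and 0.812 between genotypes, and 0.367 and 0.824 between times. The numbers are only 2 per group in BMDMs, so a call lost or gained with a block may rest on a number alone. Csf2 and Zcchc18 had at most 3 counts in any BMDM library, so no change was detectable there, and Ddit4 had at most 52.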
